A study of Homo sapiens with 2 samples.

Results

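Mitosis divides the duplicated chromosomes between daughter cells on a spindle of microtubules. Kinetochores, which are protein assemblies built on each centromere, attach chromosomes to the spindle, and the spindle checkpoint holds back anaphase until all are attached. Most genes of this machinery are transcribed mainly in late S phase, G2 and mitosis, so their mRNA in a cell population is known to follow the share of cycling cells.

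The 44 genes described here encode parts of the mitotic spindle and kinetochore machinery and were taken by name from the deposited gene count table, which lists 58735 genes. They were chosen with earlier results of these data known. All 44 were found, and all 44 passed the filter of at least 10 counts in at least 1 library, as did 17887 genes in all, called the tested genes below although no test was run. PLC8024, also given as PLC/PRF/5 or Alexander cells, is a human HCC cell line. RNA of 1 library of wildtype cells (MAEL WT) and 1 library of MAEL knockout cells (MAEL KO) was sequenced to ask which genes change when MAEL, a cancer/testis gene, is knocked out. The knockout was made by transfecting sgRNA and Cas9 on a plasmid, sorting mCherry-positive cells and growing single clones, whereas the wildtype cells are labelled as non-treated. A clone and the knockout therefore cannot be told apart. With 1 library per condition no difference given here has a replicate check, and no p-value was computed. Each interval is an exact 95% binomial interval (Clopper-Pearson) for how a gene's counts divided between the libraries, converted to a log2 fold change, and it covers counting error only.

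Total counts were 19904136 in MAEL WT and 20833332 in MAEL KO, and mitochondrial genes took 4.42% and 4.95% of them. MAEL itself had 1 and 0 counts, so its mRNA does not check the labels. All 11 liver markers examined had at least 10 counts in at least 1 library, although ALB had only 59 counts in MAEL WT and 8550 in MAEL KO. Counts of 7 fibroblast markers summed to 13.8 and 8.50 CPM (counts per 1000000 counts of the library) in MAEL WT and MAEL KO, those of 5 leukocyte markers to 64.8 and 35.8, and those of 4 endothelial markers to 17.8 and 19.5. LYZ made up most of the leukocyte sum, with 1251 and 737 counts, and PECAM1 most of the endothelial sum, with 348 and 392. Of the fibroblast markers, PDGFRB had 122 and 29 counts, COL1A1 had 92 and 11, and COL3A1 had 54 and 136. CD3E and PDGFRA had 0 counts in both libraries, PTPRC had 3 and 0, and VWF had 1 and 0. The part of these markers in the results below was not tested.

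All 44 mitotic genes were higher in MAEL KO than in MAEL WT by log2 fold change, whereas 48.0% of the tested genes were above 0. PRC1 was higher only through the scaling, with 33 counts in each library and an interval that held 0. It alone turned to -0.064 when libraries were scaled by their totals. The counts of the 44 genes summed to 26616 in MAEL WT, or 1337 CPM, and to 81369 in MAEL KO, or 3906 CPM. The log2 fold change, from counts normalized by edgeR's TMM factors with 1 added, had a median of 1.99, or 3.96-fold, beside a median of -0.04 for all tested genes. Of the 44 genes, 21 were above 2, where 2.16% of the tested genes lay, and 42 were above 1, where 10.2% lay. Scaled by library totals, 10 of the 44 were above 2 and the median of the 44 was 1.71. That scaling moved genes down by up to 0.28 on the log2 scale, and less where counts were low. Among the 11748 genes with at least 100 counts in MAEL WT, which include 41 of the 44, 0.911% lay above 2 and 7.91% above 1. None of the 44 was below -2, where 5.64% of the tested genes lay, so that 7.8% of them were past 2 in either direction. Those past 2 ran down to KIF23 at 2.01, and the next below were AURKA at 1.99 and BUB1B at 1.98, so the threshold splits genes of nearly equal value. By counting error alone, 12 genes had an interval wholly above 2, 16 had one that held 2, and 16 had one wholly below it. In whole-culture RNA, more cells in late S phase, G2 or mitosis cannot be told apart from more of these mRNAs per cell.

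The genes lay close together. The middle of the list, from the 25th to the 75th percentile, ran from 1.62 to 2.20. The SD across the 44 genes was 0.49, beside 1.12 across all tested genes. The sets are unlike in depth, since the tested genes needed only 10 counts, while 41 of the 44 had at least 100 in MAEL WT. Of the 44 genes, 42 were above the 90th percentile of tested genes by log2 fold change, and the exceptions were CENPH, at percentile 89.6, and PRC1, at 62.3. Levels per gene length were read as FPKM (fragments per kilobase of gene length, scaled to library size). The listed length is that of all merged exons in GENCODE 29 for 58724 of the 58735 genes. It can differ from the length of the mRNA present, so FPKM compares levels between genes only roughly. The Spearman correlation across the 44 genes between FPKM in MAEL WT and in MAEL KO was 0.90. Genes are not independent replicates, and the points share their gene lengths. The correlation was not computed over all tested genes, so it is not shown to be particular to the 44. The median FPKM of the 44 genes was 4.69 in MAEL WT and 17.8 in MAEL KO, while that of the tested genes was 3.51 and 3.39.

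**Figure D1:**
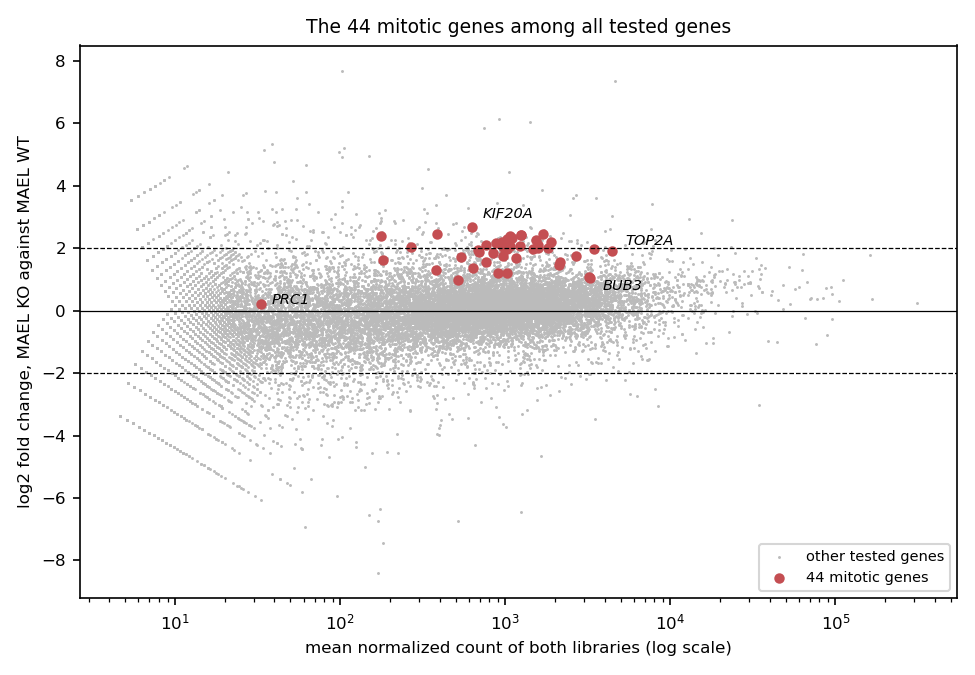
Log2 fold change between the libraries, MAEL KO over MAEL WT (y axis) against the mean normalized count of both libraries (x axis, log scale), with each tested gene as a grey point and the 44 mitotic genes in red, and dashed lines at 2 and -2. The red points form a band around their median of 1.99, and PRC1, at 33 counts in each library, lies apart near 0.

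The promoters of these genes were read from RefSeq (GRCh38.p14), from 250 bases before to 50 after the gene start, for 38 of the 44 genes. AURKA, BIRC5, BUB3, CENPH, TPX2 and TTK had no entry. Mitotic genes are known for the cell cycle homology region, an element bound by the DREAM and MMB complexes, and for CCAAT boxes, which bind NF-Y. Both strands were searched for the letters TTTGAA and TTTAAA, which are forms of that region, for CCAAT, and for TTCCCGC, an E2F-type sequence. Each motif was counted by itself, also where matches of different motifs overlapped. The upstream 150 bases of the 4 matched genes with the highest and the 4 with the lowest log2 fold change are shown in this order, so that the ends of the range can be compared. Capitals mark matches on either strand that lie wholly inside the bases shown.
KIF20A: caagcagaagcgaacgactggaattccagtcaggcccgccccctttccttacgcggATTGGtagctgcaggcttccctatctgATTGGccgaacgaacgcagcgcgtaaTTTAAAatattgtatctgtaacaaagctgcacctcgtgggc
CENPF: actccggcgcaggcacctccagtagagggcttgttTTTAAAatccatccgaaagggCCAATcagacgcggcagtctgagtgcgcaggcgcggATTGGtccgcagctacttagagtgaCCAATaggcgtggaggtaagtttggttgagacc
SPC25: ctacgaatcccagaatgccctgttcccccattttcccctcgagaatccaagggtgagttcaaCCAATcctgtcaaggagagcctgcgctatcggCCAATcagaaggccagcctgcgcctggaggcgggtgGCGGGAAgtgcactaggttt
NCAPH: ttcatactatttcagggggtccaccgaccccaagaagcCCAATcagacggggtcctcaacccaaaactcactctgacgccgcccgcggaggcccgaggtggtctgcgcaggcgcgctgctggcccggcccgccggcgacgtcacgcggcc
INCENP: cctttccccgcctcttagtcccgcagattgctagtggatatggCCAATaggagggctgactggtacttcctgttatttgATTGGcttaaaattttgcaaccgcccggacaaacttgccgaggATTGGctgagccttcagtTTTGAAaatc
CEP55: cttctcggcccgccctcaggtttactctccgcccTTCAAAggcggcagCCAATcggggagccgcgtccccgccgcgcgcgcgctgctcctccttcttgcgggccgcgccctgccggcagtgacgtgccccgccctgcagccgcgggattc
ECT2: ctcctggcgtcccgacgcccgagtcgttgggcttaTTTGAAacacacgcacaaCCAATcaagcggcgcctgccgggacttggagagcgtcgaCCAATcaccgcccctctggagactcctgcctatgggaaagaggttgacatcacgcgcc
PRC1: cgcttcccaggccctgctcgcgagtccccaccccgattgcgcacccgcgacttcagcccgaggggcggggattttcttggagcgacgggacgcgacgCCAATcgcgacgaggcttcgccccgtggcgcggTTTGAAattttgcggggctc

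These stretches lie at chr5:138178962-138179111 (plus strand) for KIF20A, chr1:214603045-214603194 (plus) for CENPF, chr2:168890431-168890580 (minus) for SPC25, chr2:96335616-96335765 (plus) for NCAPH, chr11:62123861-62124010 (plus) for INCENP, chr10:93496462-93496611 (plus) for CEP55, chr3:172750576-172750725 (plus) for ECT2 and chr15:90994536-90994685 (minus) for PRC1. CCAAT boxes stand in all 8 of them, at both ends of the range of fold changes. Over the whole window, TTTGAA or TTTAAA was present in 34 of the 38 mitotic promoters, or 89.5%, beside 24.3% of the 27305 promoters of the same length. TTTGAA alone was in 76.3% beside 15.4%, and CCAAT in 73.7% beside 35.7%. A form of the cell cycle homology region together with CCAAT was in 65.8% beside 9.49%, while TTCCCGC was in 13.2%, or 5 promoters, beside 6.56%. Among promoters of tested genes TTTGAA or TTTAAA was in 15.7%, CCAAT in 36.7% and TTCCCGC in 9.92%. In a narrower stretch from 60 bases before to 20 after the start, which was chosen after the positions had been seen, TTTGAA or TTTAAA began in 65.8% of the mitotic promoters and in 6.86% of all.

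Among the 38 mitotic genes the median log2 fold change was 1.93 for the 29 with TTTGAA and 2.28 for the others, whereas it was 2.20 for the 11 with TTTAAA and 1.93 for the others. With either form it was 1.97 for 34 genes and 2.17 for the others, and it was 2.05 with CCAAT and 1.95 without. Over the 11398 tested genes matched to a promoter, 14.3% of those with TTTGAA or TTTAAA were above 1, and 8.51% of those without. With the region and CCAAT together it was 18.3%, and 8.82% otherwise. These genes include the mitotic ones. A match is a description of letters in a window and not of a bound factor.

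For the 6 spindle checkpoint genes the median log2 fold change was 2.10, and 4 of them were above 2. MAD2L1, which encodes the MAD2 protein that blocks CDC20 at unattached kinetochores, had 420 counts in MAEL WT and 1959 in MAEL KO, giving a log2 fold change of 2.43 (95% interval 2.28 to 2.59). BUB1, a kinetochore kinase, went from 565 to 2375 counts, at 2.28. TTK, the kinase that starts checkpoint signalling, went from 310 to 1156, at 2.11 (1.93 to 2.29). These kinases and the MAD2 gene all lay past the threshold of 2 by value, though the interval of TTK held it. CDC20, the activator of the anaphase-promoting complex on which the checkpoint acts, had 639 and 2378 counts, at 2.10. BUB1B, which encodes BUBR1, had 447 and 1527, at 1.98. BUB3, the partner of BUB1 and BUBR1 and a protein with roles outside mitosis, had 2259 and 4076 counts, with a log2 fold change of 1.06 (0.99 to 1.14). BUB3 had the most counts of the 44 genes in MAEL WT and was the lowest by fold change after PRC1 and CENPH, and its interval did not overlap that of any other checkpoint gene.

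The mitotic kinases and spindle assembly factors had a median of 1.99 over 7 genes. AURKA, which matures centrosomes and the spindle poles, had the highest FPKM of the 44 genes in both libraries, 23.3 in MAEL WT and 92.6 in MAEL KO, from 1492 and 5138 counts. TPX2, the protein that activates AURKA on spindle microtubules, went from 16.5 to 56.0 FPKM, on 1301 and 3824 counts, with a log2 fold change of 1.76 (1.67 to 1.86). PLK1, a kinase with tasks from mitotic entry to cytokinesis, went from 364 to 1451 counts, at 2.20. Within this group the genes of spindle fibres and poles were at both ends. DLGAP5, which steadies kinetochore fibres, had 368 and 1675 counts, at 2.39. ASPM, a spindle pole protein, had 372 and 1570, at 2.28. HMMR, a hyaluronan receptor that also acts in spindle assembly, had 413 and 1060, at 1.57 (1.40 to 1.74). NUSAP1, a microtubule-binding protein, was thinly counted, with 94 and 254 counts, at 1.63 (1.30 to 2.0). Its counts have a further limit: 62.2% of its exon bases in GENCODE 29 are also exon bases of AC087721.2 on the same strand, which had 0 counts in both libraries.

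The centromere and kinetochore genes were the most spread of the larger groups, with a median of 1.83 over 8 genes. CENPF, a large kinetochore protein, was second of the 44 by fold, from 558 to 2674 counts, at 2.47 (2.34 to 2.61). CENPE, the kinesin that moves chromosomes to the spindle equator, went from 384 to 855, at 1.36. CENPA, the histone H3 variant that defines the centromere, went from 233 to 500, at 1.31. CENPH, of the inner kinetochore that sits on CENPA chromatin throughout the cycle, went from 372 to 638 counts, at 0.99 (0.80 to 1.18), the lowest after PRC1. The interval of CENPA overlapped those of CENPE and CENPH. Inner kinetochore genes outside the 44 were spread widely and included CENPI at 2.21, CENPC at 0.95 and CENPT at -0.12. Of the MIS12 complex next to NDC80, PMF1 was at 1.34, DSN1 at 1.23, NSL1 at 0.42 and MIS12 at -0.26. Whether inner and outer kinetochore genes differ in their change was not tested.

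The NDC80 complex is the rod that grips microtubules. NDC80 had 304 and 1005 counts, and its partner NUF2 had 268 and 772. The other dimer was counted less, with 127 and 602 counts for SPC25 and 60 and 274 for SPC24. The latter pair had the larger changes, at 2.45 (2.18 to 2.74) for SPC25 and 2.38 (1.99 to 2.83) for SPC24, beside 1.93 (1.75 to 2.13) for NDC80 and 1.73 (1.53 to 1.94) for NUF2. Per gene length, SPC24 was the lowest subunit in both libraries, at 0.966 and 5.09 FPKM, while SPC25 went from 3.15 to 17.2 FPKM, below NDC80 and NUF2 in MAEL WT and above them in MAEL KO.

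Of 6 kinesin motors, 5 were above 2. KIF20A, which carries the chromosomal passenger complex to the central spindle, had the largest change of the 44 genes, from 182 to 1005 counts, or 6.36-fold (log2 2.67, 95% interval 2.45 to 2.91). KIF2C, a microtubule depolymerase at centromeres, went from 389 to 1711 counts, at 2.34. KIF11, which pushes the spindle poles apart, had 435 and 1593, at 2.08 (1.93 to 2.24). These motors act at different places of the spindle and all lay past 4-fold by value, though the interval of KIF11 reached below it. KIF18A, which damps chromosome movements in metaphase, had 112 and 404 counts, at 2.05 (1.76 to 2.38). KIF23, the motor of centralspindlin, had 776 and 2709, at 2.01. KIF4A, a motor on chromosome arms and the central spindle, was the exception, from 1222 to 2892 counts, at 1.45 (1.36 to 1.55).

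The chromosomal passenger complex corrects wrong attachments and later directs cytokinesis. Its kinase AURKB had 403 and 1453 counts, at 2.06, and BIRC5, which encodes survivin, had 669 and 2341, at 2.02. CDCA8, which encodes borealin, had 320 and 1015, at 1.87. INCENP, the scaffold of the complex, went from 665 to 1338 counts, at 1.22 (1.08 to 1.36), below the intervals of the other 3. In MAEL WT the 4 subunits were within 1.39-fold of each other by the listed merged-exon lengths, from 5.93 to 8.22 FPKM. In MAEL KO they were spread over 2.17-fold, from INCENP at 15.8 to AURKB at 34.2 FPKM.

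**Figure D2:**
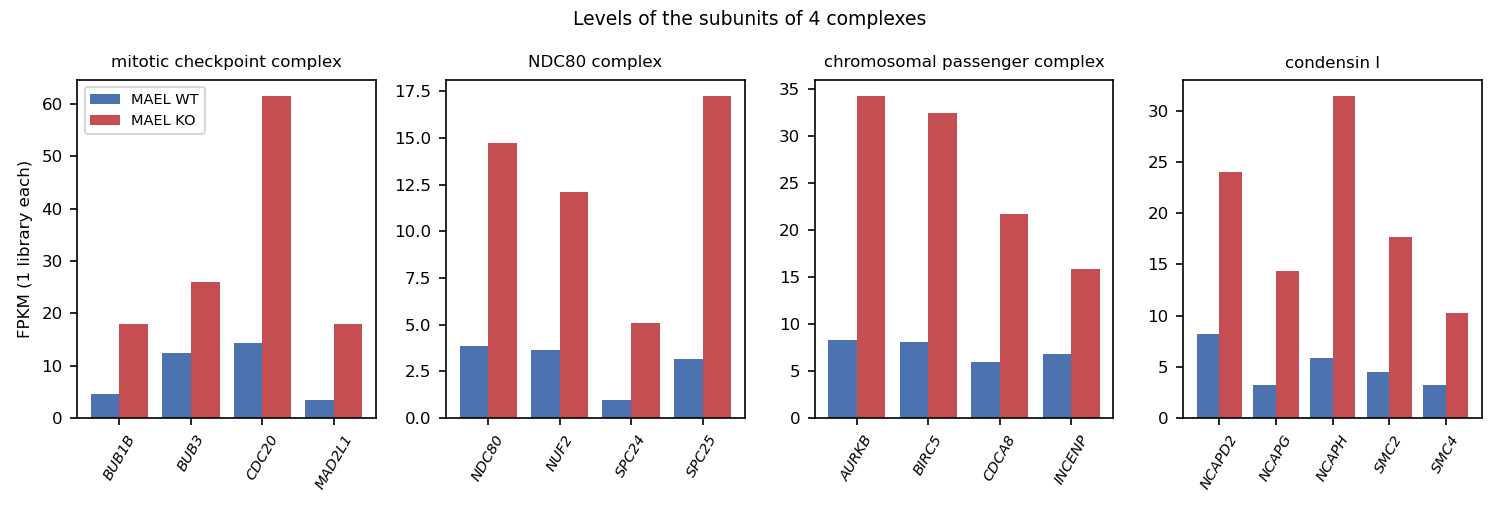
FPKM (y axis, from 0) of the subunits of the mitotic checkpoint complex, the NDC80 complex, the chromosomal passenger complex and condensin I, with 1 bar for the MAEL WT library (blue) and 1 for the MAEL KO library (red) and no error bars since there is 1 library each. Every subunit is higher in MAEL KO. The share of the summed FPKM of the complex is lower in MAEL KO for BUB3, INCENP, NUF2, NDC80, NCAPD2 and SMC4, and slightly lower for SMC2.

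Shares of subunits also differed between the libraries in other complexes. The share of BUB3 in the summed FPKM of the 4 mitotic checkpoint complex genes was 35.9% in MAEL WT and 21% in MAEL KO, while that of CDC20 was 41.3% and 49.9%. In condensin I, which compacts chromosomes, the share of NCAPD2 was 32.8% and 24.6%, and that of NCAPH was 23.3% and 32.2%. These shares compare FPKM within a library and do not depend on the scaling between libraries. They do depend on the listed gene lengths, so they are not measured proportions of mRNA molecules.

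The 9 genes of chromosome structure and separation had a median of 1.90. TOP2A, the topoisomerase that untangles sister DNA, had the most counts of the 44 genes in MAEL KO, from 2020 to 6521, at 1.90 (1.83 to 1.97). Of the condensin I genes, NCAPH led with 416 and 1956 counts, at 2.44, followed by NCAPG with 342 and 1341, at 2.18. The ATPase subunits shared with condensin II were lower, SMC2 with 640 and 2164 counts, at 1.97, and SMC4 with 594 and 1643, at 1.68. NCAPD2 was last of the 5, with 1157 and 2963, at 1.57 (1.47 to 1.67). Of the genes that guard and cut cohesin, PTTG1, which encodes securin, went from 502 to 1839 counts, at 2.08. ESPL1, which encodes separase, the protease that securin holds inactive, went from 397 to 1228, at 1.84. CDCA5, which encodes the cohesin protector sororin, had 469 and 1382 counts, at 1.77. Securin was above separase per gene length in both libraries, 5.58-fold in MAEL WT and 6.61-fold in MAEL KO.

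Of the 4 genes of the central spindle and cytokinesis, ANLN alone was above 2. ANLN, which encodes the contractile ring scaffold anillin, went from 730 to 2888 counts, at 2.19 (2.08 to 2.31). ECT2, the exchange factor that switches on RHOA for cytokinesis, went from 2211 to 4025, at 1.07 (1.00 to 1.15). CEP55, which recruits the machinery that cuts the last bridge between daughter cells, went from 582 to 1162, at 1.21 (1.06 to 1.35). ECT2 was the second of the 44 genes by FPKM in MAEL WT, at 18.4, and went to 38.6 in MAEL KO, and its interval lay wholly below that of ANLN.

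PRC1, which bundles the antiparallel microtubules of the central spindle, stood apart with 33 counts in each library, or 0.273 and 0.315 FPKM, the lowest of the 44. Its log2 fold change was 0.20 (-0.53 to 0.95), and -0.064 when the libraries were scaled by total counts. PRC1 lies at chr15:90966038-90995629 (minus strand, GRCh38), and 57.6% of its 5525 exon bases in GENCODE 29 are also exon bases of AC068831.7 on the same strand, listed at chr15:90966190-91022566. AC068831.7 had 44 counts in MAEL WT and 141 in MAEL KO, a log2 fold change of 1.87 (1.39 to 2.41). The antisense gene PRC1-AS1, over 7.35% of those bases, had 12 and 22 counts. How reads shared by genes and reads of either strand were assigned is not given in the sources used here, so the part of this overlap in the values of PRC1 was not tested. PRC1 and NUSAP1, the genes with the largest shares of exon bases inside another gene on the same strand, were among the 4 lowest of the 44 by FPKM in MAEL WT.

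Such overlaps were small for most of the other genes. Of the 44, 4 shared exon bases with another gene on the same strand and 18 on either strand, and over 10% was shared by 3 and 6 of them. The 26 genes that shared none had a median log2 fold change of 1.98, from 0.99 to 2.47, and 12 of them were above 2. SMC4, NCAPG and PLK1 shared 25.6%, 33.1% and 12.5%, with genes on the opposite strand, and BUB1B shared 10.2% with BUB1B-PAK6, which had 0 counts. Named copies of 10 of the 44 genes, 13 in all and including KIF4B, PTTG2 and PTTG3P, had at most 9 counts in a library.

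**Figure D3:**
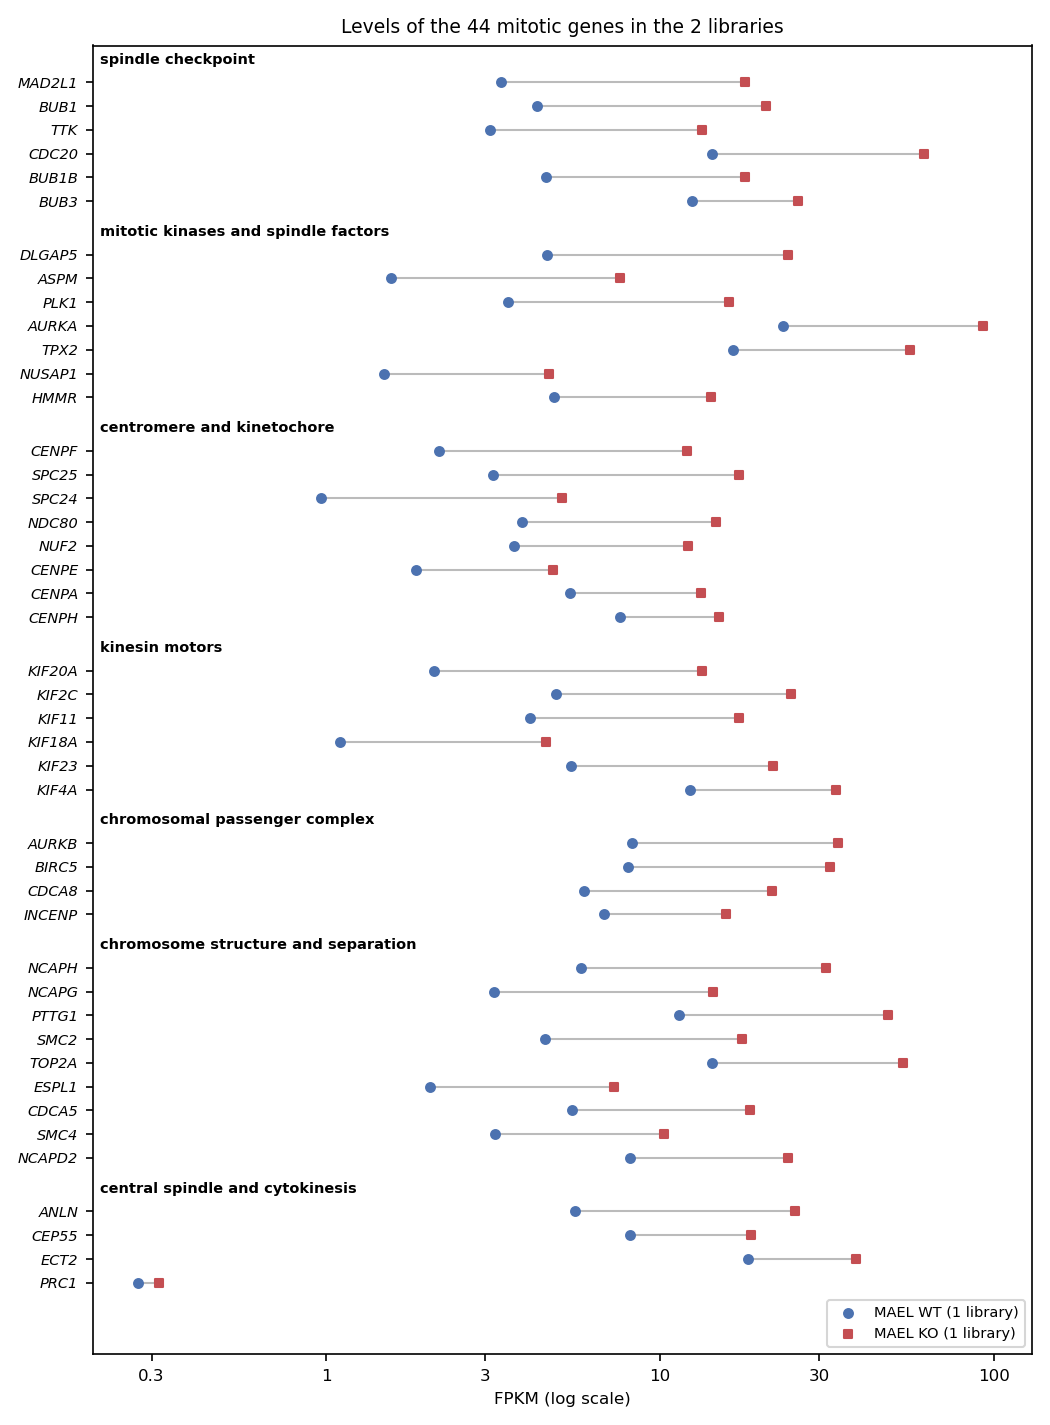
FPKM (x axis, log scale) of the 44 mitotic genes in the MAEL WT library (blue circles) and the MAEL KO library (red squares), joined by a line for each gene and grouped by role. Every red square lies to the right of its blue circle, and PRC1 is the lowest gene, at 0.273 and 0.315 FPKM.

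**Figure D4:**
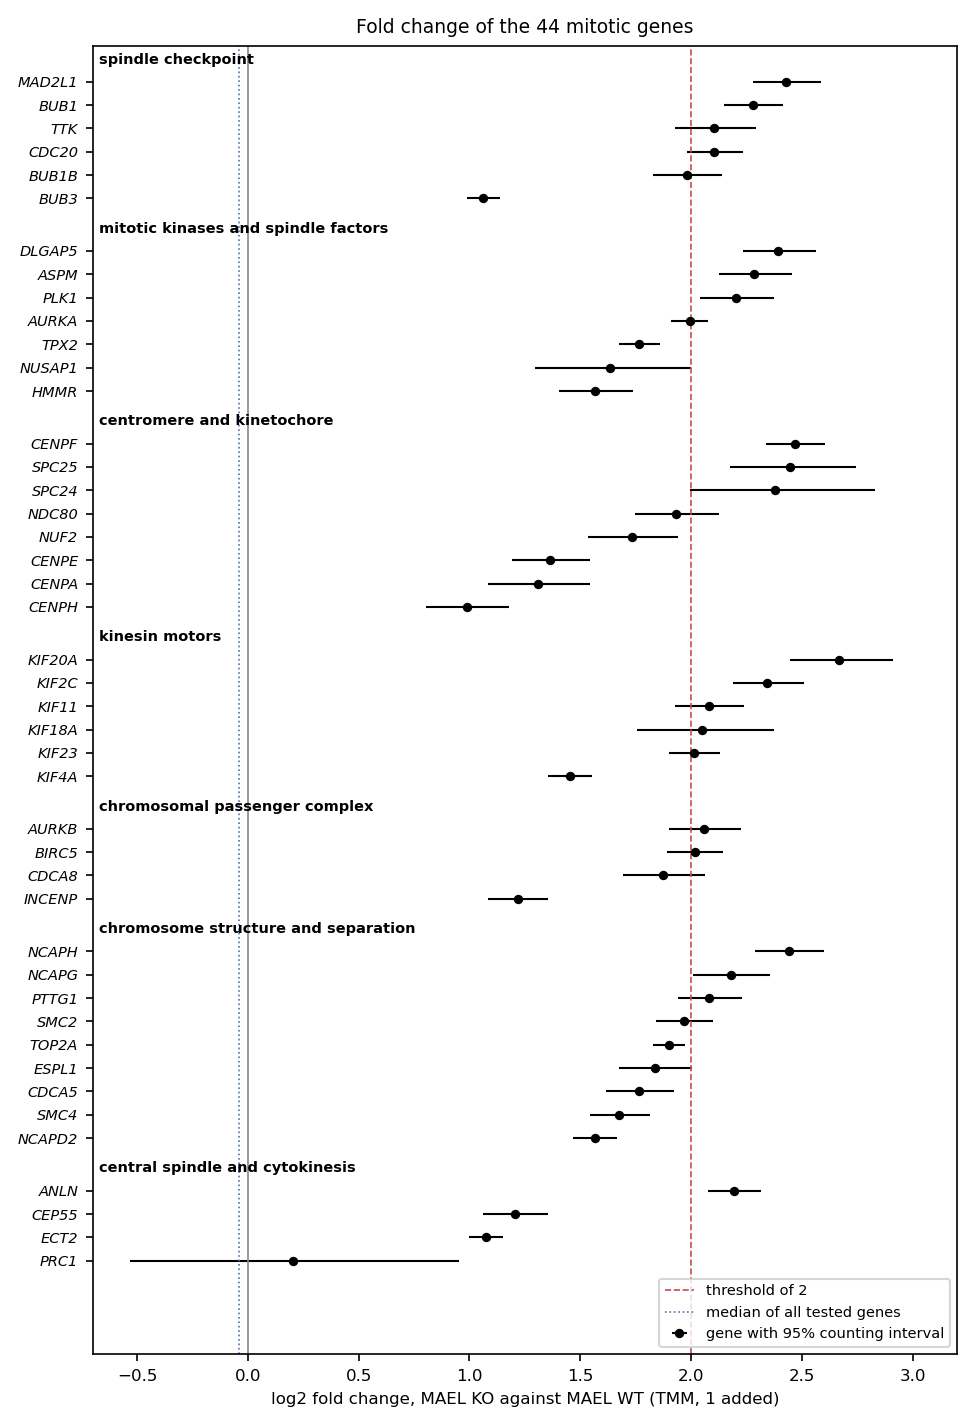
Log2 fold change between the libraries, MAEL KO over MAEL WT (x axis) of the 44 mitotic genes by role, with exact 95% intervals for counting error only, and with lines at 0, at the threshold of 2 and at the median of all tested genes (-0.04). The intervals of 43 genes lie above 0, and the interval of PRC1 holds 0. Of all 17887 tested genes, 6220 had an interval wholly above 0 and 6207 had one wholly below it.

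Other genes of mitosis were compared from lists of gene names. Of 32 further kinetochore and centromere genes, 30 were above 0, 22 above 1 and 3 above 2, with a median of 1.30. ZWINT, a kinetochore scaffold of the checkpoint, led with 417 and 2286 counts, at 2.66, and MIS12, of the complex that joins the inner and outer kinetochore, was lowest with 781 and 565, at -0.26 (-0.42 to -0.10). Of 14 other checkpoint, kinase and cohesion genes, 12 were above 1, with a median of 1.43, from ESCO2, a cohesin acetyltransferase, at 2.17 to MAD1L1, the anchor of MAD2, at 0.31. Further mitotic kinesins were near the 44 genes, with a median of 1.93 over 7 genes and 6 above 1, from KIF15 at 2.02 to KIF2A at 0.50. Among 21 further spindle and cytokinesis genes the median was 1.23, from STIL, a centriole assembly factor, at 2.37 to NUMA1, a spindle pole protein, at 0.02 (-0.09 to 0.12).

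Cohesin and the anaphase-promoting complex also work outside mitosis. For 12 other condensin and cohesin genes the median was 0.78, from the condensin II gene NCAPG2 at 1.72 to the cohesin regulator PDS5A at -0.09. For 18 genes of the anaphase-promoting complex with its E2 enzymes and regulators it was 0.45, and 2 were above 1, or 11.1%, near the 10.2% of all tested genes. The highest of these was FBXO5, an inhibitor of the complex, at 1.81, and the lowest was its small subunit gene ANAPC13, at -0.40 (-0.52 to -0.27). The tubulins that build the spindle were split, with 6 of 11 tested genes above 1, from TUBB4B, with 2153 and 7955 counts, at 2.10 to TUBB2B at 0.03 (-0.12 to 0.17).

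Among 15 regulators of mitotic gene transcription the median was 0.45, and 5 were above 1. MYBL2, the activator that joins the MuvB core in proliferating cells, had 941 and 3800 counts, at 2.22 (2.12 to 2.33), whereas LIN37, a subunit of that core, had 67 and 28, at -1.02 (-1.74 to -0.39). Of 32 replication licensing and fork genes all were above 0, 27 were above 1 and 12 above 2, with a median of 1.86, from the helicase subunit MCM4 at 3.04 to RFC1 of the clamp loader at 0.36. Genes of S phase and of mitosis were thus higher side by side. Of 21 tested cyclins, CDKs and inhibitors the median was 0.66 and 10 were above 1, and CCNA2, the cyclin of S phase and G2, was highest, from 408 to 2257 counts, at 2.67. Of 7 CDK inhibitors, CDKN2C was highest with 143 and 328 counts, at 1.40, CDKN2A was at 0.26, CDKN1B at -0.02, CDKN2D at -0.61 and CDKN1A at -0.88. CDKN2B had 1402 and 215 counts, at -2.49 (-2.71 to -2.29), and CDKN1C had 44 and 2, at least 12.7-fold lower against a floor of 3 counts.

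**Figure D5:**
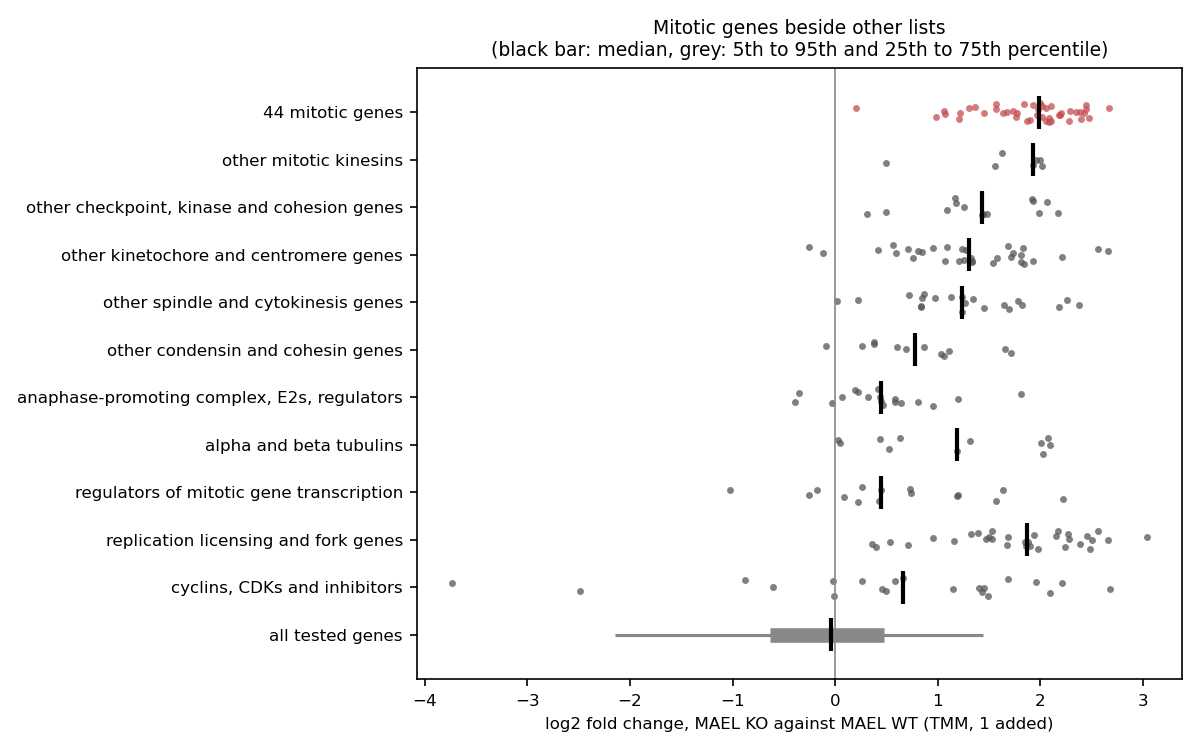
Log2 fold change between the libraries, MAEL KO over MAEL WT (x axis) of the 44 mitotic genes (red) and of the tested genes of 10 other lists (grey points), with the median of each list as a black bar and, for all tested genes, the 5th to 95th and 25th to 75th percentiles in grey. The medians run from 1.99 for the mitotic genes and 1.93 for further mitotic kinesins to 0.45 for the anaphase-promoting complex and for transcription regulators, and that of all tested genes is -0.04.

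MAEL is best known in the germ line, so genes of meiosis were looked at beside their mitotic counterparts. Of 14 such genes, 7 had at least 10 counts in a library, and SPO11 and MEIKIN had 0 in both. STAG3, a meiotic cohesin subunit, had 212 and 82 counts, at -1.15 (-1.55 to -0.79), and DMC1, a recombinase, had 9 and 26, at 1.63 (0.60 to 3.02). The median over the 7 genes was -0.81. The 14 genes took 107.4 CPM in MAEL WT and 106.5 in MAEL KO, but most of both sums was MEIOB, a meiotic recombination factor, with 1325 and 1818 counts, at 0.67 (0.56 to 0.77). MEIOB and DMC1 were above 0, and the other 5 tested genes were below it.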

How the data were processed

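RNA of 1 MAEL WT and 1 MAEL KO library had been sequenced on HiSeq by the authors. The submitters' processing notes name HISAT2 2.0.5, featureCounts 1.5.0-p3 and hg19, but positions in the deposited tables are those of GRCh38, and all 58735 identifiers are in GENCODE 29, 58690 at the same coordinates. The authors deposited raw read counts per gene and FPKM values. The latter could be rebuilt from the counts, the listed lengths and library sizes of 1.10 and 0.91 times the totals. Settings for strand and for reads shared by genes are not given in the sources used here. All 4 columns of sample values were used.

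TMM factors came from edgeR 4.0.16 (R 4.3.3), and DESeq2 1.42.0 gave other size factors. Fold changes, intervals and motif searches used Python 3.11.15, NumPy 2.4.6, SciPy 1.17.1 and pandas 2.3.3, with plots in matplotlib 3.10.9. To each normalized count 1 was added before the log2 ratio was taken, and a gene was tested if either library had 10 counts or more. Thresholds of 2 and 1 were used. The labels put 1 library in each group, so no test was run, and each list is given by its counts and median beside those of all tested genes. The computation was tested on simulated data. Totals were 19904136 and 20833332 counts. No molecular identifiers were used, so reads may repeat a molecule, and the intervals and the floor hold for counting alone.

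The 44 genes and the lists were chosen with earlier results of these data known. Named genes are all 44, the highest and the lowest tested gene of each other list, any gene more than 1 against the sign of its list's median, MAEL, and genes that overlap or copy one of the 44. Cell type markers, SPO11, MEIKIN, MEIOB, CENPI, CENPC, CENPT, DSN1, PMF1, NSL1 and the CDK inhibitors other than CDKN2B and CDKN1C were named with values known. Alternatives were total-count, upper-quartile and DESeq2 scaling, the FPKM ratio with 0.01 added, 0.1 or 5 as the added count, stricter or no filtering, only protein-coding genes, the lower threshold and levels per kilobase.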

Additional observations from a re-analysis of the deposited data

How the results depend on the processing

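Scaled by total counts, 10 of the 44 mitotic genes were above 2 in place of 21, and their median was 1.71 in place of 1.99, beside a median of -0.31 in place of -0.04 over all tested genes. That scaling moved 40 of the 44 genes beyond their counting interval, which no other alternative did for any, and turned the sign of PRC1, to -0.064. At a threshold of 1, 42 of the 44 were above it. Under DESeq2 size factors, upper-quartile factors, the FPKM ratio, the other added counts and the other filters, the number above 2 was 19 to 21 and the median 1.94 to 1.99. None was below -2 under any alternative run. All 44 were higher by FPKM, but its library sizes, 1.10 and 0.91 times the totals, nearly equal the TMM scaling. All 44 were also higher by normalized counts per kilobase, where dividing both libraries by the same length cannot change a sign. These comparisons are therefore not separate checks of the direction. The median of all tested genes was above 0 for genes with at least 100 counts (0.066) and for protein-coding genes alone (0.017). Leaving out a library was not possible with 1 per condition. No paired analysis was possible because each condition has 1 library and no test was run.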
